A study of Mus musculus with 18 samples.

Results

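The libraries described here are 6 of the 18 in the series: epithelial cell fractions of mouse intestine taken from recipients of bone marrow and T cells, 3 with the code SI and 3 with the code LI in their descriptions. They were chosen by those codes, which also head the columns of the count table. The recipients were female BALB/cJ mice of 6 to 8 weeks that received lethal irradiation and 10000000 bone marrow cells, either alone (BM) or with 1000000 T cells added (BMT), and tissue was taken on day 7. Irradiation and marrow were thus common to every group. The 6 intestinal BM libraries, 3 of each code, served here as the comparison without T cells, and the other 6 libraries were from liver. Neither the donors' strain nor the source of the T cells is given in the sources used here. The labels do not call the libraries of a group separate mice, and p-values measure only how far these libraries spread.

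The labels of the intestinal libraries contradict each other. The libraries coded SI have titles that name the large intestine, and those coded LI have titles that name the small intestine. The level of Hoxb13, a transcription factor of the distal gut, was 0 counts in each code SI library and 41.5, 107 and 178 CPM in code LI libraries 6, 9 and 10, where CPM is a gene's counts per 1000000 counts of its library after scaling. Gata4, a transcription factor of the proximal small intestine, was at 12.6, 5.6 and 8.69 CPM in code SI and 0.797, 0.482 and 0.31 CPM in code LI. The regional marker genes thus went with the codes and against the titles, and the groups are called code SI and code LI throughout. Every direction below depends on that choice.

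The absorptive epithelium of the small intestine takes up nutrients and bile acids and holds Paneth cells, which secrete antimicrobial peptides, whereas the colonic epithelium recovers salt and water behind a thick mucus layer. T cells reach the gut through the integrin formed by Itga4 and Itgb7. The chemokine receptor Ccr9 and its ligand Ccl25 guide them to the small intestine, and the receptor Gpr15 guides them to the colon. In graft-versus-host disease, donor T cells enter the epithelium and release interferon gamma, to which epithelial cells respond with guanylate-binding proteins, antigen presentation genes and chemokines.

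Total counts per library were 18845483 to 23335458 in the 6 BMT libraries, and 3 counts corresponded to 0.129 to 0.159 CPM of these totals. Mitochondrial genes took 4.83% to 6.01% of counts in code SI and 6.24% to 7.46% in code LI, ranges that did not overlap. Code SI library 9 and code LI library 10 carry another lane number than the other 4. Epcam, the epithelial adhesion molecule, was at 1572, 1751 and 2123 CPM in code SI and 1573, 1736 and 1688 CPM in code LI. Of 15815 genes tested with edgeR's quasi-likelihood test and Benjamini-Hochberg adjustment, 4053 (25.6%) differed between code SI and code LI with an adjusted p under 0.05. Of these 1518 (9.60%) were higher and 2535 (16.0%) lower in code SI, and the median log2 fold change of all genes was -0.03. Log2 fold changes below are code SI over code LI. Values are in the order of libraries 6, 9 and 10, and a gene is called, or said to be higher or lower, only where it passed this threshold.

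T cell RNA was lower in code SI than in code LI. Of the 22 genes of the T cell receptor complex and T cell surface, 14 were lower and 1 was higher, with a median log2 fold change of -1.04, beside 16.0% lower and 9.60% higher among all genes. Their summed level was 271 to 407 CPM in code SI and 544 to 805 CPM in code LI, against 44 to 47.1 and 28.6 to 28.8 CPM in the matching BM libraries. In bulk RNA, fewer T cells and less RNA per T cell cannot be told apart. Without Bcl11b, which made most of the BM sum, the levels were 248 to 376 and 527 to 786 CPM in BMT and 5.44 to 16.9 and 8.65 to 10.3 CPM in BM. Either sum was above the BM range in each of the 6 BMT libraries, and the BMT ranges of the regions did not overlap.

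Cd4, the co-receptor of helper T cells, was at 8.72, 15.4 and 13.5 CPM in code SI and 57.3, 46.4 and 43.5 CPM in code LI (log2 fold change -1.97 ± 0.25 SE, adjusted p = 3.3e-05). The groups did not overlap, and this was the lowest p of the list. Thy1, a T cell surface glycoprotein, was at 35.4, 55.6 and 51.4 CPM in code SI and 118, 101 and 84.4 CPM in code LI (log2 fold change -1.09 ± 0.20 SE, adjusted p = 0.00067). Cd3e, a subunit of the receptor complex, was at 10.8, 21.3 and 19.5 CPM in code SI and 34.9, 30.5 and 26.9 CPM in code LI without overlap, but its log2 fold change of -0.84 ± 0.30 had an adjusted p of 0.052. Levels of Cd8a, the co-receptor of cytotoxic T cells, overlapped at 19.6, 28.8 and 34.5 CPM in code SI and 51, 42.8 and 30.5 CPM in code LI (log2 fold change -0.58 ± 0.38 SE, adjusted p = 0.31). Bcl11b, a transcription factor of T cells, was the member that was higher in code SI (log2 fold change 0.63 ± 0.18 SE, adjusted p = 0.015), at 22.9, 30.4 and 36.4 CPM there and 30.2, 38.5 and 37 CPM in the BM libraries 2, 4 and 5, a call that ended without code SI library 10 and with the 4 libraries of the common lane. The common leukocyte antigen Ptprc overlapped between regions at 40.7, 25.7 and 47.6 CPM in code SI and 92.7, 76.1 and 30.2 CPM in code LI. Without code LI library 6 the number of T cell genes lower in code SI was 9, and without code SI library 10 or 6 it was 10.

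Of 20 tested genes of cytotoxic and effector function 10 were lower in code SI and 0 higher (median -0.95). The shares among all genes were 16.0% lower and 9.60% higher. Tbx21, the transcription factor of the type 1 program, was at 4.14, 6.53 and 6.76 CPM in code SI and 16.6, 12.6 and 10.8 CPM in code LI (log2 fold change -1.20 ± 0.27 SE, adjusted p = 0.0033). Ifng, the gene of interferon gamma, was at 3.34, 3.56 and 3.54 CPM in code SI and 9.3, 9.46 and 5.73 CPM in code LI (log2 fold change -1.23 ± 0.30 SE, adjusted p = 0.0077), and no library of one region overlapped the other for either gene. The serine protease inhibitor Serpina3g had the lowest p of the list (log2 fold change -1.81 ± 0.24 SE, adjusted p = 3.6e-05).

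Gzma and Gzmb, proteases of cytotoxic granules, did not pass the threshold in BMT. Gzma was at 98, 156 and 246 CPM in code SI and 313, 217 and 218 CPM in code LI. Gzmb was at 78.2, 111 and 203 CPM in code SI and 229.9, 191 and 167 CPM in code LI, so that code SI library 10 lay inside the code LI range for both. In BM, both genes had been higher in code SI (log2 fold change 4.48 for Gzma and 2.52 for Gzmb), and the regional differences in BMT and BM differed by -5.07 ± 0.94 (SE, adjusted p = 0.0061) for Gzma and by -3.11 ± 0.67 (SE, adjusted p = 0.013) for Gzmb. Such a difference between the BMT and BM contrasts was called for 1016 genes, 6.42% of those tested. Nkg7, a protein of cytotoxic granules, was lower in code SI in BMT (log2 fold change -0.92 ± 0.21 SE, adjusted p = 0.0036) and had been higher there in BM (1.34), with 0.997, 0.571 and 0.84 CPM in code SI and 0.152, 0.367 and 0.395 CPM in code LI. The gene of perforin, Prf1, was lower (log2 fold change -0.96 ± 0.33 SE, adjusted p = 0.043), a call that ended in 8 of its 15 alternative settings. Without code LI library 6 the number of effector genes lower in code SI fell from 10 to 4.

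Checkpoint receptors and T cell cytokines were also lower in code SI. Of 13 checkpoint and costimulation receptors 10 were lower (median -1.15), among them Tnfrsf4 (OX40) at 2.24, 2.67 and 3.13 CPM in code SI and 9.21, 9.68 and 7.12 CPM in code LI (log2 fold change -1.69 ± 0.24 SE, adjusted p = 7.1e-05) and Pdcd1 (PD-1) at 11, 16 and 13.1 CPM in code SI and 41.2, 40.7 and 26.1 CPM in code LI (log2 fold change -1.43 ± 0.25 SE, adjusted p = 0.00051). Without code LI library 6 the count was 3. Among all genes the share lower in code SI was 16.0%. Of 17 helper cell genes 10 passed the filter on low counts and 5 were lower. These were Il2ra, the high-affinity interleukin 2 receptor chain, at 2.69, 2.88 and 3.59 CPM in code SI and 16.7, 9.64 and 10.4 CPM in code LI (log2 fold change -2.004 ± 0.29 SE, adjusted p = 9.6e-05), Csf2, the cytokine GM-CSF, at 0.498, 0.551 and 0.966 CPM in code SI and 5.84, 5.52 and 5.26 CPM in code LI (log2 fold change -3.03 ± 0.45 SE, adjusted p = 0.00013). Tnf, Gata3 and Il13 with log2 fold changes of -1.84 ± 0.28, -1.84 ± 0.28 and -3.07 ± 0.55. Foxp3, the transcription factor of regulatory T cells, was at 0.548, 0.721 and 0.874 CPM in code SI and 0.753, 0.964 and 0.877 CPM in code LI and overlapped. The T helper 17 cytokine genes Il17a, Il17f and Il22 did not pass the filter, with at most 0.133 CPM in any of the 6 libraries.

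RNA of gamma delta and intraepithelial T cells overlapped between the regions. Of 11 genes 1 was higher and 2 were lower in code SI (median -0.24), beside 9.60% higher and 16.0% lower among all genes. The summed level was 103 to 178 CPM in code SI and 130.5 to 182 CPM in code LI. The delta constant gene Trdc was at 0.199, 0.17 and 0.138 CPM in code SI and 0.443, 0.351 and 0.155 CPM in code LI, against 0.68, 0.22 and 0.742 CPM in code SI and 0.405, 0.0917 and 0.474 CPM in code LI of BM. Sox13, also an epithelial gene, was the higher one (log2 fold change 0.86 ± 0.17 SE, adjusted p = 0.0017). Tyrobp, an adaptor of natural killer and myeloid cells, and Il2rb were lower, with log2 fold changes of -2.65 ± 0.65 and -1.30 ± 0.33. The call of Tyrobp ended without code LI library 6.

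Myeloid RNA was higher in code LI and was highest in code LI library 6. Of 18 monocyte and macrophage genes 12 were tested, 8 were lower in code SI and 1 was higher (median -1.89). The shares among all genes were 16.0% lower and 9.60% higher. The summed level was 62.8 to 71.5 CPM in code SI and 122 to 177 CPM in code LI. It was also lower in code SI of BM, at 21.1 to 38.4 CPM against 60.7 to 64.9 CPM in code LI. All 3 members called in BM were called in the same direction in BMT. The difference between the BMT and BM contrasts was called for 2 of the 12 tested, beside 6.42% of all genes. Ly6c2, a marker of inflammatory monocytes, was at 6.08, 8.69 and 4.51 CPM in code SI and 30.6, 25.8 and 28.8 CPM in code LI (log2 fold change -2.14 ± 0.28 SE, adjusted p = 3.8e-05). The complement gene C1qa, made by resident macrophages, was at 0.947, 0.254 and 0.874 CPM in code SI and 6.29, 3.81 and 4.95 CPM in code LI (log2 fold change -2.87 ± 0.40 SE, adjusted p = 6.5e-05). Vsig4, a marker of resident macrophages, had 0 counts in each of the 6 libraries.

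Of 16 neutrophil genes 6 were tested and 5 were lower in code SI, beside 16.0% among all genes. The count was 3 without code LI library 6 and 3 without code SI library 10. Ly6g, the surface antigen that marks neutrophils, was at 14.5, 7.29 and 4.74 CPM in code SI and 1349, 640.1 and 1141 CPM in code LI (log2 fold change -6.89 ± 0.47 SE, adjusted p = 4.4e-08) without overlap. The other 15 genes of the neutrophil list summed to 5.38 to 6.23 CPM in code SI and 10.2 to 43.1 CPM in code LI, and the value of 43.1 CPM was that of library 6. In code LI library 10 they summed to 10.2 CPM, beside 1141 CPM of Ly6g. In code LI of BM the list summed to 71.7 to 80.4 CPM with Ly6g and to 0.79 to 1.52 CPM without it. Ly6g thus did not follow the other neutrophil genes, and which cells its RNA came from was not tested. Il1r2, a decoy receptor of neutrophils, was at 0.797, 0.424 and 0.828 CPM in code SI and 7.31, 3.15 and 2.48 CPM in code LI (log2 fold change -2.66 ± 0.45 SE, adjusted p = 0.00039). The granule genes Mpo and Elane were at or under 0.0443 CPM and Ctsg had 0 counts.

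Markers of other non-epithelial cells were low in both regions. The counts of called members in this paragraph stand beside 16.0% lower and 9.60% higher among all genes. B and plasma cell genes summed to 4.49 to 5.89 CPM in code SI and 5.93 to 10.5 CPM in code LI, with Pax5 at 0 counts. Of these 12 genes 4 were tested and 2 were lower, the immunoglobulin genes Igkc (-2.04 ± 0.63) and Igha (-1.87 ± 0.65), with Igha at 0.199, 0.127 and 0.322 CPM in code SI and 0.443, 1.23 and 0.722 CPM in code LI. Both calls ended when single libraries were left out, and neither was called without library 9 or 10 of either code. Of 9 dendritic cell genes only Itgax passed the filter (log2 fold change -0.97 ± 0.35 SE, adjusted p = 0.057). Clec9a and Cd209a had 0 counts. Of 11 fibroblast and smooth muscle genes 7 were tested and 2 were lower, or 5 without code SI library 10, and those without Thy1 summed to 6.33 to 16.7 CPM in code SI and 10.3 to 15.5 CPM in code LI. Acta2, the smooth muscle actin, was lower in code SI (log2 fold change -2.30 ± 0.44 SE, adjusted p = 0.0012). Of 12 genes of natural killer, innate lymphoid and mast cells 7 were tested, 2 were lower and 1 higher. The mast cell protease gene Cma1 was higher in code LI, at 1.2, 4.38 and 2.89 CPM against 3 counts in all of code SI, a ratio of 61.6-fold (95% counting interval 20.7 to 301). Il7r, the interleukin 7 receptor of T cells and innate lymphoid cells, was lower in code SI (log2 fold change -1.78 ± 0.37 SE, adjusted p = 0.0022). Ncr1, a marker of natural killer cells, had 0 counts. Of 10 endothelial genes 3 were tested, and Pecam1 was lower (-1.37 ± 0.27) and Lyve1 higher (2.95 ± 0.30) in code SI, while Cldn5 had 0 counts. Of 8 erythroid genes 3 were tested and none was called, with Hbb-bs at 0.199, 0.551 and 2.16 CPM in code SI and 0.398, 0.613 and 0.258 CPM in code LI. What part these cells had in the results below was not tested.

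**Figure D1:**
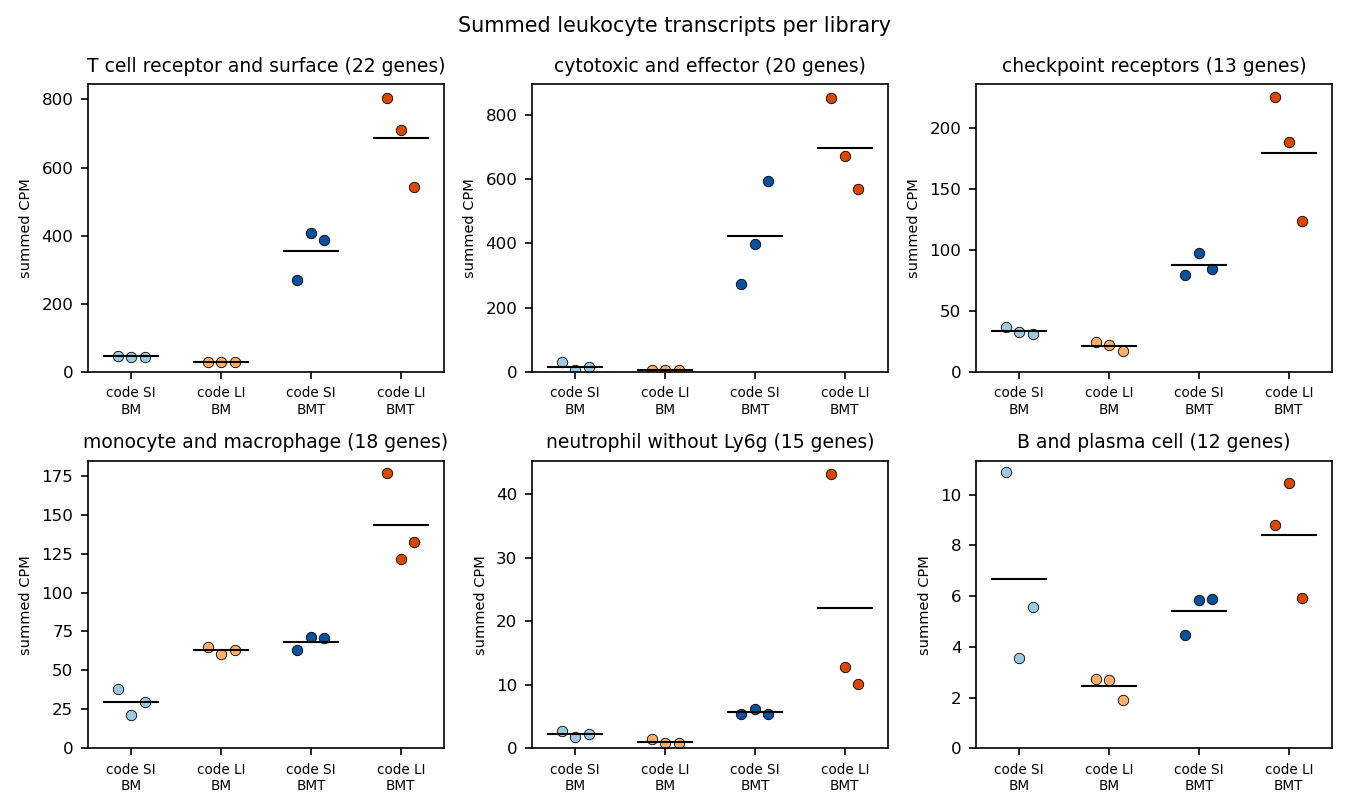
Summed CPM (y axis) of 6 leukocyte gene lists in each of the 12 intestinal libraries; points are libraries in the order of their numbers, and horizontal lines are means of 3. T cell, effector and checkpoint sums were above the BM range in all 6 BMT libraries, the T cell sums of the regions did not overlap in BMT, and code LI library 6 was the highest for the myeloid lists.

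The ligands that guide T cells to each region had opposite levels in BMT, as in BM. Ccl25, the ligand of Ccr9 (ENSMUSG00000023235.14, chr8:4325210-4360020, plus strand, GRCm38.p5), was at 169.5, 222 and 348 CPM in code SI and 2.97, 2.98 and 3.04 CPM in code LI (log2 fold change 6.36 ± 0.27 SE, adjusted p = 7e-10). The gene 2610528A11Rik (ENSMUSG00000096001.2, chr14:37102140-37114022, minus strand), which encodes the ligand of Gpr15, was at 5.63, 5.68 and 7.82 CPM in code SI and 254, 211 and 332 CPM in code LI (log2 fold change -5.38 ± 0.32 SE, adjusted p = 1.1e-08). Neither gene overlapped between regions, and neither regional difference was called as different from that in BM, where it was 6.49 for Ccl25 and -4.64 for 2610528A11Rik. Within each region the BMT levels of the region's own ligand were lower than in BM, in which Ccl25 in code SI was at 425, 389 and 357 CPM in libraries 2, 4 and 5 and 2610528A11Rik in code LI was at 479, 539.7 and 423 CPM; this difference between BMT and BM was not tested here.

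The start regions of these ligand genes are shown because these are the ligands of the region-specific receptors Ccr9 and Gpr15. The sequences are the 250 bases before a start annotated in RefSeq (GRCm38.p6), read 5′ to 3′ on the gene's strand. For 2610528A11Rik this start and its window lie inside the gene model that was counted, not at its end. Capitals mark a match on either strand to a motif named for Cdx factors, whose letters are TTTATG. Motifs named for Gata factors, with the letters AGATAA, were also searched. The same holds for the motif of Hnf1 factors, which is GTTAAT.
Ccl25, upstream start, chr8:4324960-4325209, plus strand: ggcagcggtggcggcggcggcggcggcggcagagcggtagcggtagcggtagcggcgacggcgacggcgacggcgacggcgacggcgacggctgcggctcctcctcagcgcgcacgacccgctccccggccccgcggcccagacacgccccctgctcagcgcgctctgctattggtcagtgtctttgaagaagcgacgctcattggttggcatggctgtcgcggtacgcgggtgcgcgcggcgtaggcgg
Ccl25, downstream start, chr8:4349338-4349587, plus strand: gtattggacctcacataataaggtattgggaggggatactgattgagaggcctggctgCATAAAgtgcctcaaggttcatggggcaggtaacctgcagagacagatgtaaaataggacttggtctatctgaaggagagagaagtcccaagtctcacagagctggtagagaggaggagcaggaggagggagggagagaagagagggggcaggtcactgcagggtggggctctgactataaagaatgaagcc
2610528A11Rik, chr14:37110102-37110351, minus strand: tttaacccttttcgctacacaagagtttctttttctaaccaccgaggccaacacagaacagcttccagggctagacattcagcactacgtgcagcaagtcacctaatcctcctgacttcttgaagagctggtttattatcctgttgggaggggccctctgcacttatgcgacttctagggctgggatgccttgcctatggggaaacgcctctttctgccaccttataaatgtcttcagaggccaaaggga
These windows were 74.8%, 51.6% and 49.2% GC, beside a median of 52.4% over the 32851 windows of the RefSeq table. The downstream Ccl25 window held TTTATG on its minus strand, printed as its reverse complement, 192 bases before the start. Of all windows 10.8% held this motif, 9.99% the Gata motif and 6.43% the Hnf1 motif. These matches are descriptions of the letters alone.

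Of 27 chemoattractant genes 21 passed the filter on low counts. Of these 11 were lower in code SI and 2 were higher (median -1.34), beside 16.0% lower and 9.60% higher among all genes. Of the ligands of Cxcr3, Cxcl10 and Cxcl11 were called as lower in code SI and Cxcl9 was not. The ligands were not tested against each other. Cxcl10 was at 31.8, 26.9 and 22.6 CPM in code SI and 53, 100.3 and 101 CPM in code LI (log2 fold change -1.64 ± 0.30 SE, adjusted p = 0.00089). Cxcl9 was at 99.9, 100.004 and 76.7 CPM in code SI and 111, 234 and 201 CPM in code LI without overlap but also without a call (log2 fold change -0.98 ± 0.48 SE, adjusted p = 0.17). Ligands that draw monocytes were near 0 in code SI. Ccl2 was at 0.15, 0.0848 and 0.046 CPM in code SI and 2.75, 8.94 and 5.83 CPM in code LI (log2 fold change -5.90 ± 0.61 SE, adjusted p = 3.3e-06). Ccl7 had 0 counts in code SI and 2.13, 4.29 and 9.03 CPM in code LI, at least 108-fold higher there (against 3 counts over the group). These went with the monocyte list, whose summed level was 62.8 to 71.5 and 122 to 177 CPM in the regions, and its part in them was not tested. Cx3cl1, the membrane-bound chemokine of epithelium, was higher in code SI (log2 fold change 0.97 ± 0.22 SE, adjusted p = 0.0035).

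A difference between contrasts was called for 7 of the 21 tested chemokine genes, Ccl4, Ccl5, Ccl9, Ccl20, Ccl24, Ccl28 and Cxcl16, beside 6.42% of all genes. Ccl28, a mucosal chemokine for plasma cells and T cells, overlapped at 18, 12.2 and 14.4 CPM in code SI and 9.7, 13.2 and 11.6 CPM in code LI, while in BM it had been lower in code SI at 49.6, 53.6 and 34.8 CPM against 110.2, 114 and 116 CPM in code LI, a difference between contrasts of 1.67 ± 0.26 (SE, adjusted p = 0.0019). Cxcl16, the ligand of Cxcr6, was at 28.8, 27 and 20.01 CPM in code SI and 57.5, 82.6 and 52.4 CPM in code LI (log2 fold change -1.34 ± 0.23 SE, adjusted p = 0.00039). In BM it had been higher in code SI at 27.3, 21.8 and 18 CPM, against 5.51, 6.74 and 4.03 CPM in code LI, so that the direction turned, with a difference of -3.39 ± 0.33 (SE, adjusted p = 6.6e-05).

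The receptors had the regional pattern of their ligands. Ccr9 (ENSMUSG00000029530.16, chr9:123678439-123784330, plus strand) was at 2.19, 3.6 and 4.92 CPM in code SI and 1.82, 0.833 and 0.671 CPM in code LI (log2 fold change 1.68 ± 0.42 SE, adjusted p = 0.0071). Its 3 code SI libraries were all above code LI, although T cell RNA was lower in code SI, and this call ended with the 4 libraries of the common lane (adjusted p = 0.056). Gpr15 (ENSMUSG00000047293.6, chr16:58717435-58718724, minus strand) was at 0.0498, 0.212 and 0.276 CPM in code SI and 2.44, 1.67 and 2.06 CPM in code LI (log2 fold change -3.45 ± 0.50 SE, adjusted p = 0.00038) and had 0 counts in all 6 BM libraries. Of 19 receptors 14 were tested, 6 were lower in code SI and Ccr9 alone was higher (median -0.93). The shares among all genes were 16.0% lower and 9.60% higher. Cxcr6, a receptor of tissue-resident T cells, was at 11.4, 15 and 16.6 CPM in code SI and 38.1, 32.5 and 20.9 CPM in code LI (log2 fold change -1.09 ± 0.23 SE, adjusted p = 0.0026). Cxcr3, a receptor of type 1 effector cells, was at 4.63, 5.73 and 4.78 CPM in code SI and 9.96, 8.89 and 5.98 CPM in code LI, without overlap but also without a call (log2 fold change -0.71 ± 0.31 SE, adjusted p = 0.11). Gpr55, a lipid receptor of intestinal T cells, was lower in code SI (-0.91 ± 0.26) and had been higher there in BM (3.30), a difference of -4.21 ± 0.46 (SE, adjusted p = 0.00014). Without code LI library 6 the number of lower receptors was 3.

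Leukocyte integrins were lower in code SI for some members and not for Itgae. Of 12 members 11 were tested and 4 were lower (median -0.56), beside 16.0% lower among all genes. Itgb7, the beta chain of the gut-homing integrin, was at 15.4, 30.4 and 25.1 CPM in code SI and 53.8, 45.2 and 42 CPM in code LI (log2 fold change -0.99 ± 0.22 SE, adjusted p = 0.0031). Itgal, a chain of the integrin LFA-1, was at 23.9, 38 and 32.2 CPM in code SI and 89.4, 64.1 and 57.1 CPM in code LI (log2 fold change -1.16 ± 0.24 SE, adjusted p = 0.002). Itgae, which pairs with Itgb7 to bind E-cadherin on epithelium, was at 3.89, 6.11 and 13.7 CPM in code SI and 5.84, 5.83 and 6.09 CPM in code LI and was not called (log2 fold change 0.42 ± 0.41 SE, adjusted p = 0.52). Its highest value was code SI library 10, without which the log2 fold change was -0.20. The alpha chain gene Itga4 also overlapped (log2 fold change -0.56 ± 0.39 SE, adjusted p = 0.34).

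Of 14 adhesion ligand genes of vessels and epithelium 11 were tested, and 4 were lower and 3 higher in code SI. The shares among all genes were 16.0% lower and 9.60% higher. Vcam1, the ligand of integrin alpha 4, was at 0.15, 0.0848 and 0.184 CPM in code SI and 1.55, 2.67 and 1.55 CPM in code LI (log2 fold change -3.75 ± 0.52 SE, adjusted p = 6e-05). Icam1, the ligand of LFA-1, was at 22, 26.5 and 18.1 CPM in code SI and 40.3, 64.1 and 71 CPM in code LI (log2 fold change -1.39 ± 0.27 SE, adjusted p = 0.0013). Madcam1, the vascular ligand of the gut-homing integrin, was at or under 0.046 CPM in each library and was not tested. The higher genes were Btnl1, Btnl2 and Btnl6, butyrophilin-like genes of the epithelium, with log2 fold changes of 0.59 ± 0.20, 0.82 ± 0.21 and 0.65 ± 0.21. Without code LI library 6, and likewise without code SI library 10, 1 of these 3 calls was left.

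Since T cell RNA differed between the regions, 23 T cell genes were also expressed per summed Cd3d, Cd3e and Cd3g RNA (log2 ratio with 0.1 CPM added to both terms). The denominators were 31.9, 56.5 and 52.6 CPM in code SI and 107.5, 91.2 and 73.5 CPM in code LI. For 8 of the 23 genes the regions did not overlap on this scale. This share was near the 33.5% of all tested genes without overlap by CPM, which is another scale. Code SI minus code LI differences in log2 units were 2.62 for Ccr9 and 1.19 for Itgae, and 0.46, 0.43 and 0.38 for Gzmk, Cd8b1 and Cd8a. Gpr15, Cd4 and Pdcd1 differed by -2.06, -1.02 and -0.43. Each of the 8 had an exact two-sided permutation p of 0.1, the smallest that 3 against 3 libraries allow, and 0.2875 after Benjamini-Hochberg adjustment over 23 genes, so that none could pass 0.05. Itgb7, Itgal, Cxcr3, Cxcr6, Gzma, Gzmb, Prf1 and Ifng overlapped per Cd3 RNA, with differences between -0.20 and 0.31.

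**Figure D2:**
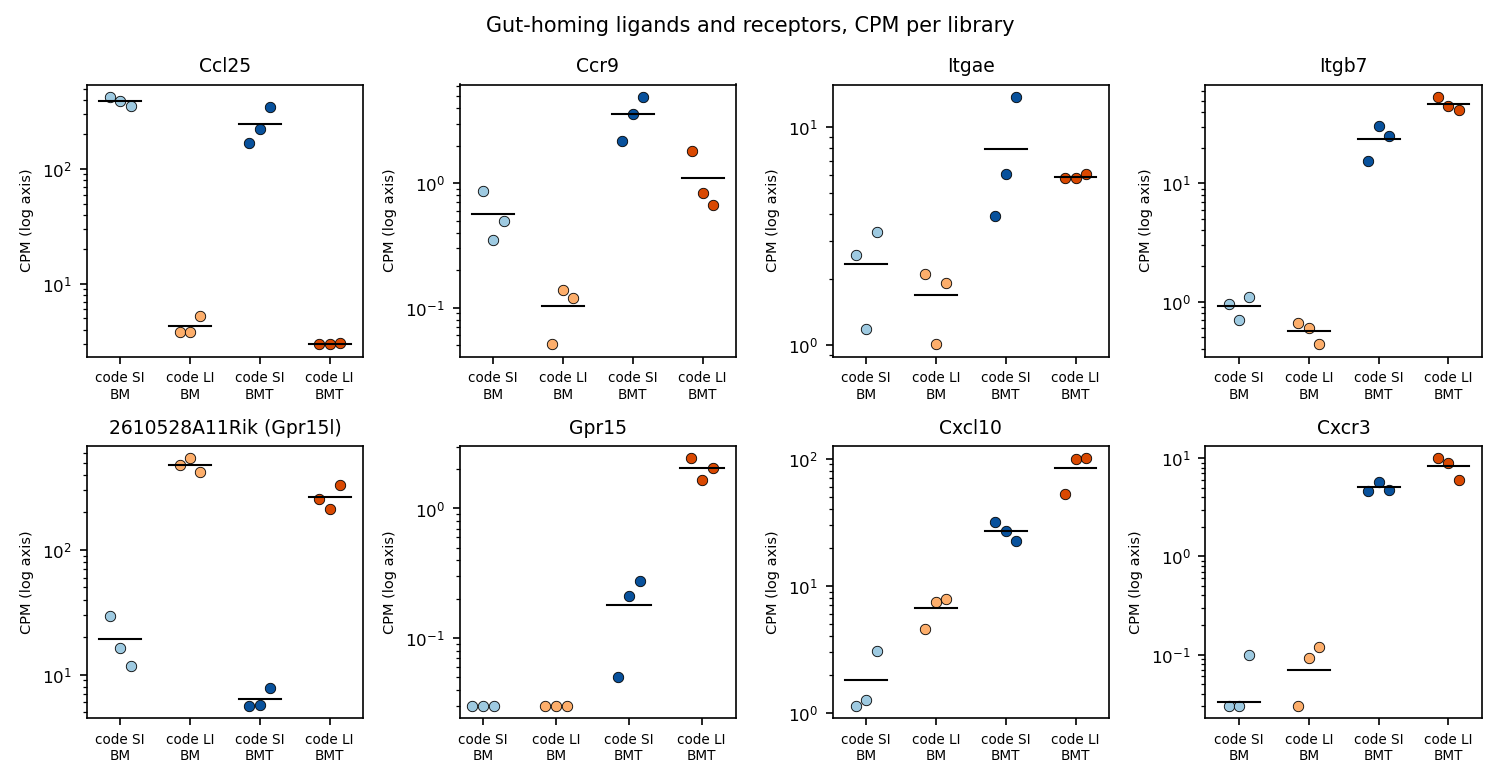
CPM on log axes of homing ligands, receptors and integrins in the 12 intestinal libraries; points are libraries in the order of their numbers, lines are means of 3, and a library without counts is drawn at 0.03 CPM. Ccl25 and Ccr9 were higher in code SI, and 2610528A11Rik and Gpr15 in code LI, while Itgae overlapped between the regions of BMT.

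The inflammatory state differed by gene group. Of 29 genes of the interferon gamma response 14 were lower in code SI and 0 higher (median -0.73), against 17 lower in BM (median -1.23), where 16.6% of all genes were lower. Ido1, the tryptophan-degrading enzyme, was at 266, 262 and 274 CPM in code SI and 1217, 928 and 1282 CPM in code LI (log2 fold change -2.09 ± 0.32 SE, adjusted p = 0.00018). In BM it was at 11.1, 25.8 and 24.1 and 79.7, 155 and 61.5 CPM. Gbp3, a guanylate-binding protein against intracellular microbes, was at 23.3, 23 and 18 CPM in code SI and 61.2, 127 and 59 CPM in code LI (log2 fold change -1.94 ± 0.28 SE, adjusted p = 8.9e-05). Ubd, a ubiquitin-like modifier, was at 49.8, 71.3 and 55.2 CPM in code SI and 129.7, 243 and 181 CPM in code LI (log2 fold change -1.65 ± 0.25 SE, adjusted p = 0.00018). For these 3 genes every code SI library was below every code LI library.

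The regional difference of interferon genes was present in BM too. The T cell list in BMT stood at 271 to 407 CPM in code SI and 544 to 805 CPM in code LI, and its part in these values was not tested. Of the 17 genes called in BM, 8 were called in the same direction in BMT and 9 were not. For Gbp7 and Iigp1, both interferon-inducible GTPase genes, the difference itself was called, at 1.57 ± 0.39 (SE, adjusted p = 0.029) for Gbp7 and 2.07 ± 0.56 (SE, adjusted p = 0.04) for Iigp1. Leaving out 1 library at a time gave 9 to 12 lower genes, 9 without code SI library 6 or code LI library 10.

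Of 24 type I interferon genes 8 were lower and 1 was higher in code SI (median -0.66), compared with 4 lower and 2 higher in BM, where 14.3% of all genes were higher. Ifit2, an inhibitor of viral translation, was at 16.1, 38.6 and 39.5 CPM in code SI and 108, 247 and 157 CPM in code LI (log2 fold change -2.44 ± 0.31 SE, adjusted p = 2.8e-05). Ifit1bl1, of the same family, was at 32.4, 55 and 69.2 CPM in code SI and 169.6, 281 and 314 CPM in code LI (log2 fold change -2.29 ± 0.26 SE, adjusted p = 8.4e-06). Cmpk2, the mitochondrial nucleotide kinase next to Rsad2, was the higher member (log2 fold change 0.74 ± 0.23 SE, adjusted p = 0.027), a call that ended without code SI library 10 or code LI library 6 and with the common lane alone. With the library number as a replicate block 13 members were lower, and 5 were without code SI library 6 or code LI library 10.

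Of 19 class I antigen presentation genes 18 were tested, 4 were lower and 2 higher in code SI (median -0.36), beside 16.0% lower and 9.60% higher among all genes. The peptide-loading gene Tapbp was at 182, 313 and 293 CPM in code SI and 356, 463 and 594 CPM in code LI (log2 fold change -0.84 ± 0.21 SE, adjusted p = 0.0079). H2-T3, the nonclassical molecule that binds CD8 alpha homodimers, was at 122, 172 and 216 CPM in code SI and 54.3, 80.5 and 113 CPM in code LI (log2 fold change 1.04 ± 0.24 SE, adjusted p = 0.0043). The number lower was 5 without code LI library 6 and 1 without code SI library 6. Of 15 class II genes 13 were tested and 2 were lower, the protease Ctss (log2 fold change -0.68 ± 0.17 SE, adjusted p = 0.0064) and the low-level H2-Oa (-1.99 ± 0.64), whose call ended with DESeq2 and without library 6 of either code, code LI library 9 or code SI library 10. The class II count was thus near the share of 16.0% lower among all genes. Leaving out 1 library at a time gave 1 to 4 lower class II genes. The chain gene H2-Aa was at 552, 963 and 739 CPM in code SI and 860.3, 1157 and 1275 CPM in code LI, the invariant chain gene Cd74 was at 1546, 2539 and 2026 CPM in code SI and 2361, 2952 and 3544 CPM in code LI. Ciita, their master regulator, was at 29.95, 59.8 and 59.3 CPM in code SI and 45.6, 69.9 and 107 CPM in code LI, and all 3 overlapped without a call. H2 reads of BALB/cJ mice were counted on a reference of another strain, which was not examined further.

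Host defence genes of the epithelium were divided between the regions, with 11 of 28 higher and 10 lower in code SI. The shares among all genes were 9.60% higher and 16.0% lower. Those higher in code SI were led by the Reg3 lectins, which bind bacterial cell walls. Reg3g was at 174, 608 and 726 CPM in code SI and 5.27, 4.12 and 27.5 CPM in code LI (log2 fold change 5.36 ± 0.69 SE, adjusted p = 3e-05). Reg3b was at 517, 2011 and 4185 CPM in code SI and 102, 49.3 and 266 CPM in code LI (log2 fold change 4.01 ± 0.65 SE, adjusted p = 0.00028). In BM, Reg3g was at 5345, 4472 and 6036 CPM in code SI and 372, 275 and 501 CPM in code LI. Duox2, the hydrogen peroxide-producing oxidase, was at 283, 486 and 1129.9 CPM in code SI and 178, 164 and 249 CPM in code LI (log2 fold change 1.68 ± 0.35 SE, adjusted p = 0.0022). Code SI library 10 was the highest of the 6 for each of these 3 genes, and no regions overlapped.

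The serum amyloid A genes, acute phase proteins that carry retinol, were lower in code SI. Saa1 was at 4.49, 18.1 and 54.4 CPM in code SI and 352, 336 and 534 CPM in code LI (log2 fold change -3.99 ± 0.59 SE, adjusted p = 0.00012). Saa2 and Saa3 had log2 fold changes of -3.91 ± 0.44 and -3.99 ± 0.45. Lcn2, the siderophore-binding protein, was at 0.498, 0.424 and 0.322 CPM in code SI and 7.13, 1.18 and 0.877 CPM in code LI (log2 fold change -2.88 ± 0.73 SE, adjusted p = 0.0081), highest in the same code LI library 6 that was highest for neutrophil genes, and it lost its call without that library. Retnlb, a goblet cell peptide, was at 22.6, 33.8 and 52.9 CPM in code SI and 502, 472 and 966 CPM in code LI (log2 fold change -4.15 ± 0.66 SE, adjusted p = 0.00024). The amyloid genes are near-identical copies, between which reads could be split.

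Nos2, the inducible nitric oxide synthase, turned its direction. It was at 62, 54.6 and 53.9 CPM in code SI and 66.5, 139 and 179 CPM in code LI in BMT (log2 fold change -1.17 ± 0.29 SE, adjusted p = 0.0064) and at 178, 150.2 and 159.7 CPM in code SI and 29.6, 16.4 and 17.1 CPM in code LI of BM, a log2 fold change of 2.95. The difference between the contrasts was -4.13 ± 0.42 (SE, adjusted p = 8.4e-05). In BMT the groups did not overlap, but code LI library 6 was close to code SI, and the call ended with the common lane alone. Of the 21 host defence genes called in BM, 16 were called in the same direction in BMT and Nos2 in the opposite one.

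Of 20 epithelial cytokine genes 17 were tested, 9 were lower in code SI and 1 was higher (median -0.82). The shares among all genes were 16.0% lower and 9.60% higher. Il1rn, the interleukin 1 receptor antagonist, was at 8.32, 6.19 and 1.56 CPM in code SI and 183, 146 and 115 CPM in code LI (log2 fold change -4.79 ± 0.42 SE, adjusted p = 6.7e-07). Il34, a ligand of the macrophage growth factor receptor, was at 0.249, 0.679 and 0.506 CPM in code SI and 5.62, 6.22 and 7.53 CPM in code LI (log2 fold change -3.72 ± 0.36 SE, adjusted p = 1.6e-06). Il18, an epithelial cytokine that induces interferon gamma, was the higher member at 21.4, 6.19 and 15.7 CPM in code SI and 3.06, 5.13 and 7.17 CPM in code LI (log2 fold change 1.498 ± 0.37 SE, adjusted p = 0.0073). It had been lower in code SI of BM at 16.4, 16 and 25.5 CPM against 80.3, 78.9 and 85 CPM in code LI, and the contrasts differed by 3.58 ± 0.51 (SE, adjusted p = 0.0011). In BMT code SI library 9 lay inside the code LI range, and all 3 code LI libraries were below every code LI library of BM.

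**Figure D3:**
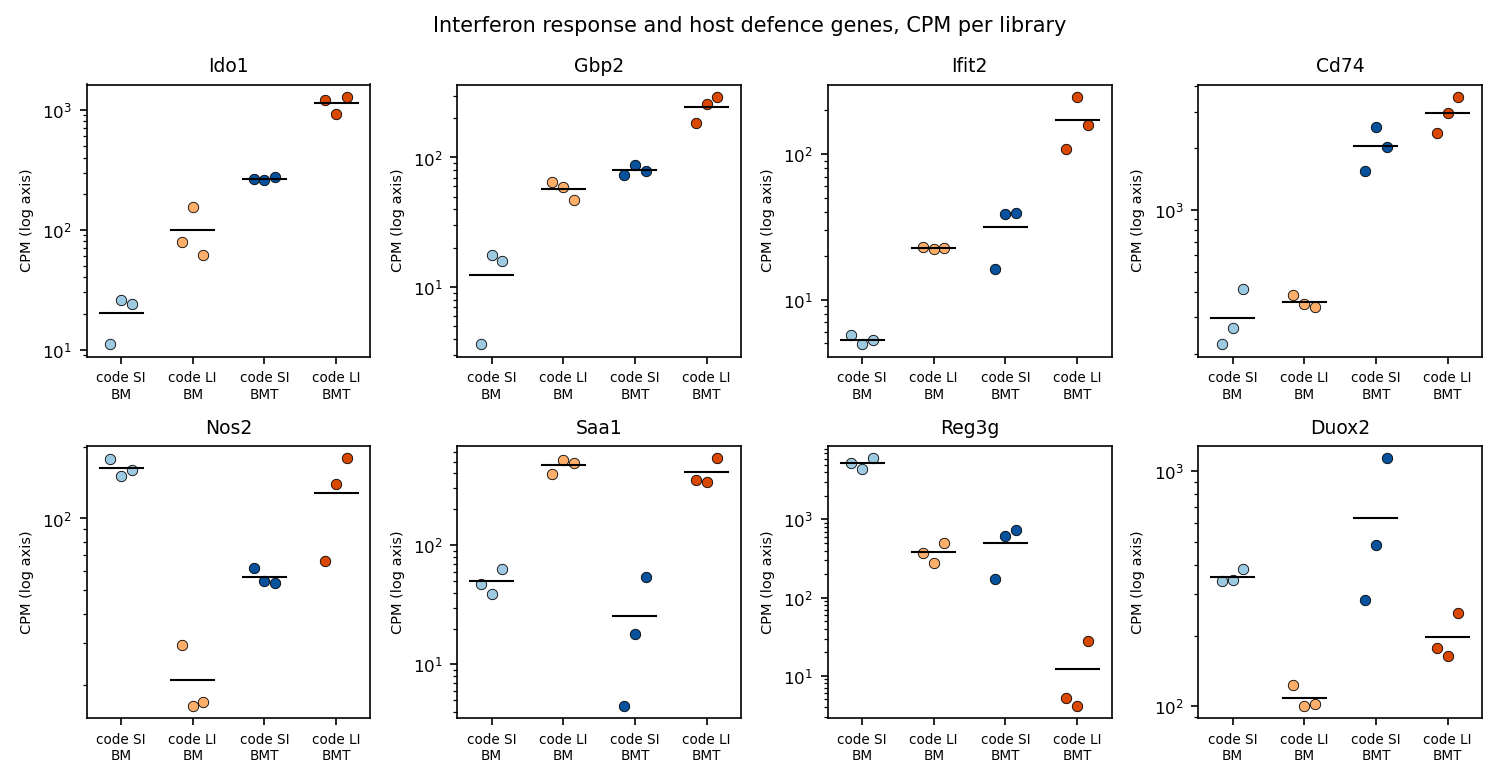
CPM on log axes of 8 interferon response and host defence genes in the 12 intestinal libraries; points are libraries in the order of their numbers and lines are means of 3. Ido1, Gbp2, Ifit2 and Saa1 were lower in code SI of BMT, Reg3g and Duox2 were higher, Cd74 overlapped, and Nos2 was higher in code SI of BM but lower in code SI of BMT.

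Nearly all BM calls of absorptive, Paneth cell and transcription factor genes were made in the same direction in BMT, and 0 of 14 of those in proliferation genes were. Of 4890 genes called between the regions in BM, 30.9% of those tested, 2384 (48.8%) were called in the same direction in BMT, 2417 were not called and 89 were called in the opposite direction. Of the 2417, the difference between the contrasts was itself called for 419, so that for the rest a change of the regional difference was not shown. In BMT 1580 genes were called that were not called in BM, with a called difference for 277. The share kept was larger for larger BM differences, 87.5% at a log2 fold change of 4 or more (461 of 527), 51.6% between 1 and 2 and 29.8% under 1. It was 42.0% of the 2257 genes higher in code SI of BM and 54.5% of the 2633 lower there.

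By list, the calls of BM that were also made in BMT were 16 of 16 for nutrient transporters, 15 of 16 for brush border hydrolases, 14 of 15 for lipid handling, 13 of 13 for bile acid genes, 10 of 10 for Paneth cell genes, 22 of 23 for regional transcription factors and 17 of 19 for ion and water transport of the large intestine. They were 8 of 17 for the interferon gamma response, 6 of 13 for chemokines, 5 of 10 for enteroendocrine genes, 1 of 4 for goblet cell genes, 0 of 6 for effector T cell genes and 0 of 14 for proliferation. A kept call is not an equal contrast. The difference between contrasts was called for 6 of 17 nutrient transporters, 5 of 16 hydrolases and 4 of 12 Paneth cell genes, beside 6.42% of all genes. For transcription factors it was called for 2 of 28, near the share among all genes. The lists differ in the size of their BM differences, with medians from 5.73 for hydrolases to 0.65 for proliferation, and its part in these shares was not tested. Called in BMT and not in BM were 12 T cell, 9 effector and 10 checkpoint genes. The difference between contrasts was itself called for 2, 0 and 1 of these, beside 277 of the 1580 such genes among all tested. For the rest a change of the regional difference was not shown.

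**Figure D4:**
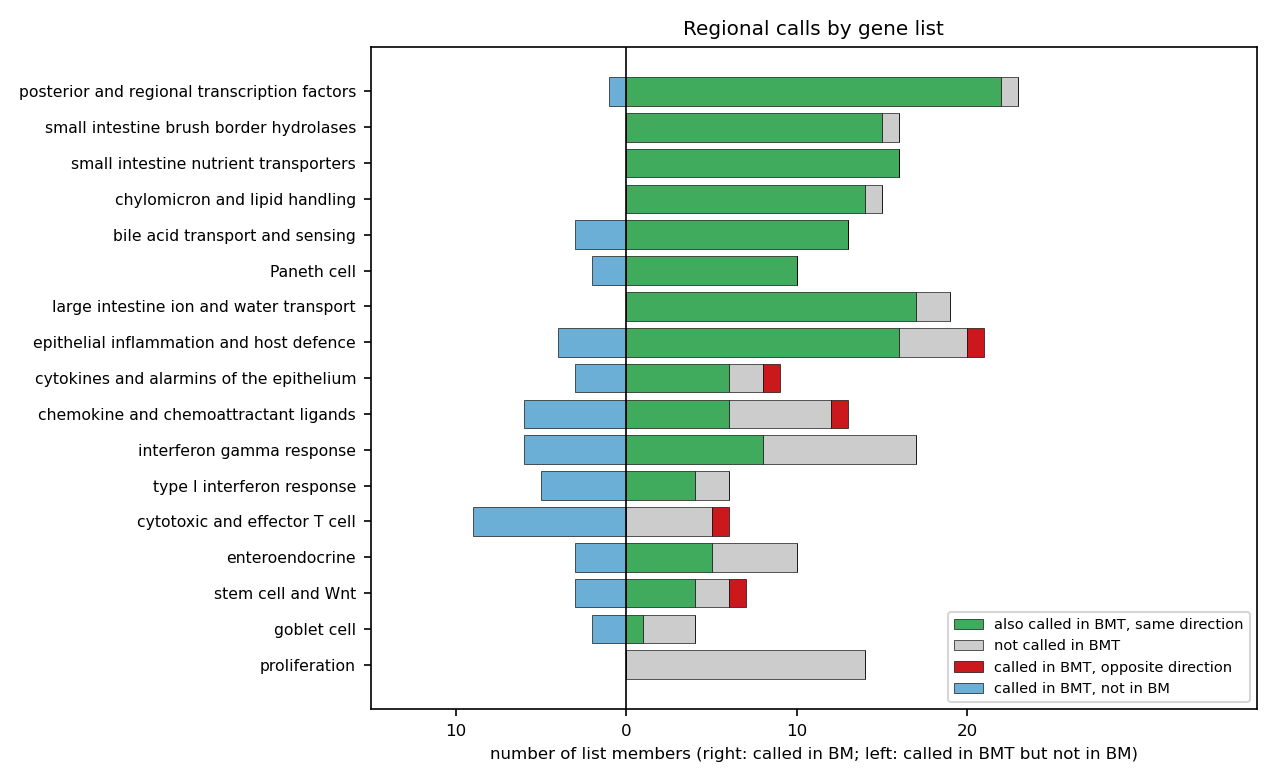
Number of members of 17 gene lists called between the regions; bars to the right divide the genes called in BM by their result in BMT, and bars to the left count genes called in BMT but not in BM. All or nearly all BM calls of the absorptive, Paneth cell and transcription factor lists were also made in BMT, against 0 of 14 for proliferation.

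Hox genes of the posterior gut were counted in code LI and hardly in code SI. Of 33 regional transcription factors 28 were tested, 16 were lower and 7 higher in code SI (median -1.19). Hoxb13 and Hoxa10 had 0 counts in code SI and were at least 2297-fold and at least 901-fold higher in code LI, and Hoxa13 and Hoxd13 at least 700.0-fold and at least 431-fold, each against 3 counts over the group. Hoxa9 had 1 count in code SI and 27.1, 32.5 and 29.6 CPM in code LI, a ratio of 1946-fold (95% counting interval 349 to 76884). Hoxa7 was at 0.0498, 0.17 and 0.092 CPM in code SI and 22, 27.7 and 22.8 CPM in code LI (log2 fold change -7.75 ± 0.38 SE, adjusted p = 2.2e-09). Among the higher factors, Gata4 had a log2 fold change of 4.05 ± 0.47. Hnf4g, a factor of enterocyte identity, had a larger contrast in BMT (3.35 ± 0.24) than in BM (1.64), with a difference of 1.71 ± 0.31 (SE, adjusted p = 0.0052).

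Digestive and absorptive genes of the small intestine were higher in code SI for 15 of 16 tested hydrolases (of 18), 16 of 17 nutrient transporters and 13 of 16 tested lipid genes (of 17), with medians of 5.399, 3.94 and 5.73. Anpep, an aminopeptidase of the brush border, was at 6393, 9839.8 and 13344 CPM in code SI and 9.74, 8.41 and 10.4 CPM in code LI (log2 fold change 10.02 ± 0.37 SE, adjusted p = 3.1e-10). The peptidase Naaladl1 was at 1616, 2036 and 2859 CPM in code SI and 5.22, 4.07 and 5.47 CPM in code LI (log2 fold change 8.78 ± 0.34 SE, adjusted p = 3.1e-10). Sis, the disaccharidase sucrase-isomaltase, was at 2285, 979.7 and 2699 CPM in code SI and 1.59, 0.701 and 0.671 CPM in code LI (log2 fold change 10.95 ± 0.57 SE, adjusted p = 3.2e-09), and its contrast was larger than in BM by 2.37 ± 0.62 (SE, adjusted p = 0.034), a call that ended in 8 of 19 alternative settings, each leaving out 1 library. For Anpep, too, the contrast was larger in BMT, by 2.66 ± 0.37 (SE, adjusted p = 0.0009).

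The Sis start region is shown because Sis is a classic target of Cdx and Hnf1 factors and was among the genes with the largest regional difference. Capitals are as above, and the window was 31.6% GC, with the Cdx motif 43 bases before the start on the strand of the gene and the Hnf1 motif 165 bases before it on the opposite strand.
Sis, chr3:72967864-72968113, minus strand: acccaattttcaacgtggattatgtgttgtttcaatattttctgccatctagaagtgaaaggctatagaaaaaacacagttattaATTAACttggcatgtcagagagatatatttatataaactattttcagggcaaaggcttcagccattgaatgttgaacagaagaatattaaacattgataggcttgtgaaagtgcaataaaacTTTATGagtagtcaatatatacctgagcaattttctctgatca

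Among transporters, Slc34a2, for phosphate, was at 211, 261 and 200.1 CPM in code SI and 9.39, 8.28 and 10.7 CPM in code LI (log2 fold change 4.57 ± 0.22 SE, adjusted p = 2.1e-09). Slc7a9, for cystine and basic amino acids, was at 282, 374 and 485 CPM in code SI and 25.1, 26.8 and 20.2 CPM in code LI (log2 fold change 3.99 ± 0.20 SE, adjusted p = 2.2e-09). The contrast of Slc7a9 differed from that in BM by -1.56 ± 0.25 (SE, adjusted p = 0.0026). Slc5a12, a lactate transporter, had 0 counts in code LI and was at 70.3, 41.5 and 43.9 CPM in code SI, at least 1105-fold higher. Enpp7, the alkaline sphingomyelinase, was at least 1071-fold higher on the same floor. Mttp, which loads lipid onto chylomicrons, was at 1127, 1068 and 1234 CPM in code SI and 3.67, 9.64 and 6.14 CPM in code LI (log2 fold change 7.46 ± 0.30 SE, adjusted p = 4.3e-10). Abcg8, a sterol exporter, had a log2 fold change of 8.73 ± 0.34.

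Bile acid genes kept their regional pattern, with 15 higher and 1 lower in code SI of 19 tested among 20 genes (median 2.19; in BM 1.36). Fabp6, the ileal bile acid-binding protein, was at 3371, 1169.9 and 4037 CPM in code SI and 1.33, 0.833 and 1.96 CPM in code LI (log2 fold change 11.03 ± 0.62 SE, adjusted p = 6.6e-09). Slc10a2, the apical bile acid transporter, was at 833, 540.4 and 1182 CPM in code SI and 132, 64.6 and 40.9 CPM in code LI (log2 fold change 3.43 ± 0.37 SE, adjusted p = 5.4e-06). Fgf15, the ileal hormone that represses bile acid synthesis in liver, was at 17.6, 2.04 and 38.5 CPM in code SI against 2 counts in all of code LI, a ratio of 613-fold (95% counting interval 169 to 5071). Its BM level in code SI was 30.5, 66.3 and 109 CPM. The receptor gene Nr1h4 (FXR) differed by 0.60 ± 0.16 and the exporter Abcc2 by 7.44 ± 0.47, while Abcc3, the basolateral exporter, was the lower member (-1.92 ± 0.21). For the basolateral transporter genes Slc51a and Slc51b the contrast differed from that in BM by -1.01 ± 0.27 (SE, adjusted p = 0.037) and -1.33 ± 0.23 (SE, adjusted p = 0.0035).

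Paneth cell genes remained higher in code SI. Of 16 members 12 were tested, 10 were higher and 2 lower (median 8.59, or 6.73 with genes at 0 set to their bounds). Lyz1, the Paneth cell lysozyme, was at 742, 1227 and 771 CPM in code SI and 0.487, 0.0876 and 0.0516 CPM in code LI, against 7172, 6465 and 4698 CPM in code SI of BM. Defa30, an alpha-defensin, was at 133, 293 and 429 CPM in code SI and had 1 count in code LI, a ratio of 18722-fold (95% counting interval 3359.8 to 739506), and was at 2909, 2613 and 2047 CPM in code SI of BM. Both genes were lower in each BMT library of code SI than in any BM library of code SI, a difference that was not tested here. For Defa35 and Defa17 the ratios were 16099.5-fold (95% counting interval 2889 to 635937) and 2300.1-fold (95% counting interval 636 to 18998), and the defensin-like AY761184 was at least 549-fold and Defa5 at least 259-fold higher. Defensin genes are near-identical copies, so their separate values are uncertain. The lower members were Nupr1 and Sox9, which are not restricted to Paneth cells, with -2.26 ± 0.27 and -0.67 ± 0.16.

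Genes for ion and water transport marked code LI, with 15 of 22 lower and 2 higher in code SI (median -2.16). Atp12a, the colonic proton-potassium pump, had 0 counts in code SI and was at 272, 474 and 730.1 CPM in code LI, at least 10464-fold higher. Slc9a3, the sodium-proton exchanger, was at 48.3, 67.9 and 64.6 CPM in code SI and 1257, 724 and 847 CPM in code LI (log2 fold change -3.97 ± 0.22 SE, adjusted p = 7.1e-09). Aqp8 and Car1, a water channel and a carbonic anhydrase, had log2 fold changes of -10.88 ± 0.92 and -6.64 ± 0.96. Aqp7, a channel for glycerol, was one of the higher genes (7.95 ± 0.42). Other genes with large differences in this direction were Thbs4, an extracellular matrix protein gene with 0 counts in code SI (at least 3898-fold), and Tgm3 and Pla2g4f, a transglutaminase and a phospholipase, with 3 counts each in code SI and ratios of 1736-fold (95% counting interval 594 to 8419) and 575-fold (95% counting interval 196 to 2792). Tight junction genes were divided, with 3 of 11 tested (of 13) higher, among them Cldn2 (1.76 ± 0.19) and Cldn15 (1.44 ± 0.18), which form ion channels, and 2 lower. Among all genes 9.60% were higher and 16.0% lower.

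Tuft cell genes, which mark chemosensory cells, were higher in code SI in BMT. Of 11 genes 7 were tested, and 5 were higher in code SI in BMT (median 2.81) and 1 in BM (median -0.18). Trpm5, the cation channel of taste transduction, was at 4.14, 6.49 and 9.25 CPM in code SI and 0.177, 0.394 and 0.413 CPM in code LI (log2 fold change 4.33 ± 0.44 SE, adjusted p = 2.9e-06). In BM it was at 0.952, 0.351 and 0.445 CPM in code SI and 0.809, 0.55 and 0.632 CPM in code LI. Its contrasts differed by 4.50 ± 0.64 (SE, adjusted p = 0.0011), and those of Dclk1, a tuft cell kinase, by 3.56 ± 0.81 (SE, adjusted p = 0.019). The code SI values were highest in library 10 for both genes. What part myeloid cells had in the values of the tuft cell list was not tested.

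Of 16 enteroendocrine genes 5 were lower and 3 higher in code SI, beside 16.0% lower and 9.60% higher among all genes. Tph1, the enzyme of serotonin synthesis, was at 1.25, 3.31 and 4.23 CPM in code SI and 28.8, 32.9 and 24.4 CPM in code LI (log2 fold change -3.28 ± 0.33 SE, adjusted p = 2.5e-06), with a contrast that differed from BM by -2.27 ± 0.43 (SE, adjusted p = 0.0072), and Insl5, a colonic hormone, was at 0, 0.127 and 0.092 CPM in code SI and 5.62, 25 and 23.5 CPM in code LI (log2 fold change -7.78 ± 0.90 SE, adjusted p = 1.1e-05). Of 12 goblet cell genes 3 were lower, beside the same 16.0% among all genes, and 1 without code LI library 10. Muc2, the gel-forming mucin, was at 87.7, 173 and 239.8 CPM in code SI and 439, 221 and 496 CPM in code LI (log2 fold change -1.21 ± 0.37 SE, adjusted p = 0.026) and Clca1, a mucus-processing protease, at 856, 1443 and 3379.8 CPM in code SI and 3695, 3805 and 8384 CPM in code LI (log2 fold change -1.48 ± 0.41 SE, adjusted p = 0.014), but both calls ended without code LI library 10, which was the highest, and without code SI library 9. The call of Muc2 also ended without library 6 of either code. Klf4, a factor of goblet and surface cells, was lower (log2 fold change -1.38 ± 0.20 SE, adjusted p = 0.00012).

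Stem cell and Wnt genes were divided, and no proliferation gene was called. Olfm4, a stem cell glycoprotein of the small intestine, was at 301, 295 and 401 CPM in code SI and 0.133, 0.0438 and 0.103 CPM in code LI (log2 fold change 11.72 ± 0.45 SE, adjusted p = 3.1e-10), and the Wnt receptor Lgr5 was at 7.53, 8.19 and 8.97 CPM in code SI and 0.487, 1.67 and 1.55 CPM in code LI (log2 fold change 2.74 ± 0.31 SE, adjusted p = 7.6e-06), against 23, 28.8 and 23.6 CPM and 7.99, 7.2 and 9.6 CPM in BM. Of 12 stem cell and Wnt genes 4 were higher and 4 lower, 1 lower without code SI library 10. Axin2, Myc and Rnf43, targets of Wnt signalling, were at log2 fold changes of 0.96 ± 0.23, -0.50 ± 0.22 and -0.54 ± 0.18 in BMT and 2.26, 0.73 and 0.81 in BM, and their contrasts differed by -1.30 ± 0.33 (SE, adjusted p = 0.029), -1.22 ± 0.31 (SE, adjusted p = 0.03) and -1.35 ± 0.25 (SE, adjusted p = 0.0057). Of 22 proliferation genes 0 were called in BMT in either direction (median 0.15), and 14 were higher in code SI in BM (median 0.65). The difference itself was called for 3 of them, Mcm2, Mcm3 and Mcm5, subunits of the replicative helicase, at -0.97 ± 0.24 (SE, adjusted p = 0.03) for Mcm2. Top2a, a topoisomerase of dividing cells, was at 458, 272 and 299 CPM in code SI and 269.5, 322 and 160.2 CPM in code LI, with overlap, and Bub1, a mitotic checkpoint kinase, was not called either (log2 fold change 0.41 ± 0.25 SE, adjusted p = 0.27). Of 16 p53 targets 4 were lower and 1 higher in code SI, beside 16.0% lower and 9.60% higher among all genes. Phlda3, an inhibitor of Akt, was at 0.449, 0.297 and 0.552 CPM in code SI and 2.97, 3.42 and 2.68 CPM in code LI (log2 fold change -2.80 ± 0.30 SE, adjusted p = 4.4e-06), and the kinase Plk2 had a log2 fold change of -1.38 ± 0.26.

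The genes named for the size of their difference between BMT and BM were of several kinds. Krt90, a keratin gene, was at 0.598, 0.297 and 0.184 CPM in code SI and 124, 39.9 and 32.9 CPM in code LI in BMT and at most 0.395 CPM in BM, a difference between contrasts of -8.62 ± 1.68 (SE, adjusted p = 0.0079), and the call ended without code SI library 4 of BM. Code LI library 6 was the highest, but each code LI library was above 30 CPM.

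Several genes were higher in code SI of BM and had smaller contrasts in BMT. Ang4, an antimicrobial angiogenin, was at 212, 357 and 597 CPM in code SI and 562, 572 and 793 CPM in code LI, with overlap, against 497, 307 and 217 CPM in code SI and 5.46, 5.5 and 15.2 CPM in code LI of BM, with a difference of -6.00 ± 0.62 (SE, adjusted p = 9.9e-05). Pnliprp2, a pancreatic lipase-related gene, was at 86.4, 165 and 269 CPM in code SI and 62.4, 60.9 and 66.2 CPM in code LI, against 258, 209.95 and 129.9 and 0.658, 0.55 and 1.22 CPM in BM, with a difference of -6.44 ± 0.55 (SE, adjusted p = 4.4e-05). The matrix protein gene Tgfbi was at 66.7, 138 and 294 and 40.7, 37.3 and 41.4 CPM and in BM at 131, 165 and 109 and 1.16, 1.74 and 0.829 CPM. The code LI levels in BMT were above those in BM in each library for these 3 genes, which was not tested. Slco3a1, an organic anion transporter, Slc28a2, a nucleoside transporter, and Fam234b also had smaller contrasts in BMT, with 1.07 ± 0.26, 3.68 ± 0.58 and 3.15 ± 0.30 against 6.21, 8.57 and 7.55 in BM.

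Other genes had been expressed in code LI of BM and were near 0 there in BMT. Cyp4b1, a cytochrome P450 of fatty acid hydroxylation, was at 35.5, 22.8 and 44.5 CPM in code SI and 0.177, 0.0876 and 0 CPM in code LI, against 26.7, 15.2 and 23.2 and 28.6, 23.2 and 25.8 CPM in BM, with a difference of 8.70 ± 0.55 (SE, adjusted p = 2.1e-06). The prolactin receptor gene Prlr was at 44, 29.7 and 109 CPM in code SI and 0.354, 0.0876 and 0.671 CPM in code LI, against 40.8, 66.6 and 66.3 and 21.8, 17.4 and 23.3 CPM, with a difference of 5.91 ± 0.70 (SE, adjusted p = 0.00027). In the same direction, Maob, a monoamine oxidase, Otc, the urea cycle enzyme that makes citrulline, and Agmo, an ether lipid oxygenase, had differences of 3.62 ± 0.80 (SE, adjusted p = 0.016), 3.60 ± 0.40 (SE, adjusted p = 0.00017) and 3.59 ± 0.43 (SE, adjusted p = 0.00028). The carboxylesterase Ces1g was at 0.548, 1.02 and 1.43 CPM in code SI and 0.133, 0.0438 and 0.258 CPM in code LI and in BM at 13, 5.88 and 2.57 and 183, 146 and 192 CPM, with a difference of 7.40 ± 0.89 (SE, adjusted p = 0.00028). For its neighbour Ces1d, with 3 counts in code LI of BMT against a BM level of 85.1, 71.6 and 88.2 CPM, the call ended without code SI library 10. The Ces1 genes are similar copies, and their values are uncertain to that extent.

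Alb, the gene of serum albumin and a marker of hepatocytes, was at 0.299, 1.15 and 102 CPM in code SI and 0.0886, 0.263 and 0.0516 CPM in code LI, so that 1 library held nearly all of its counts. The difference between contrasts was 12.63 ± 2.90 (SE, adjusted p = 0.019), and 7.12 without that library. The sum of 18 hepatocyte genes was 174 CPM in code SI library 10, of which Alb was 58.5%, and 13.2 to 39.3 CPM in the other 5 BMT libraries. Code SI library 10 was also the highest for Reg3g, Duox2, Itgae, Trpm5 and Otc, and the part of hepatocyte RNA in those values was not tested.

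**Figure D5:**
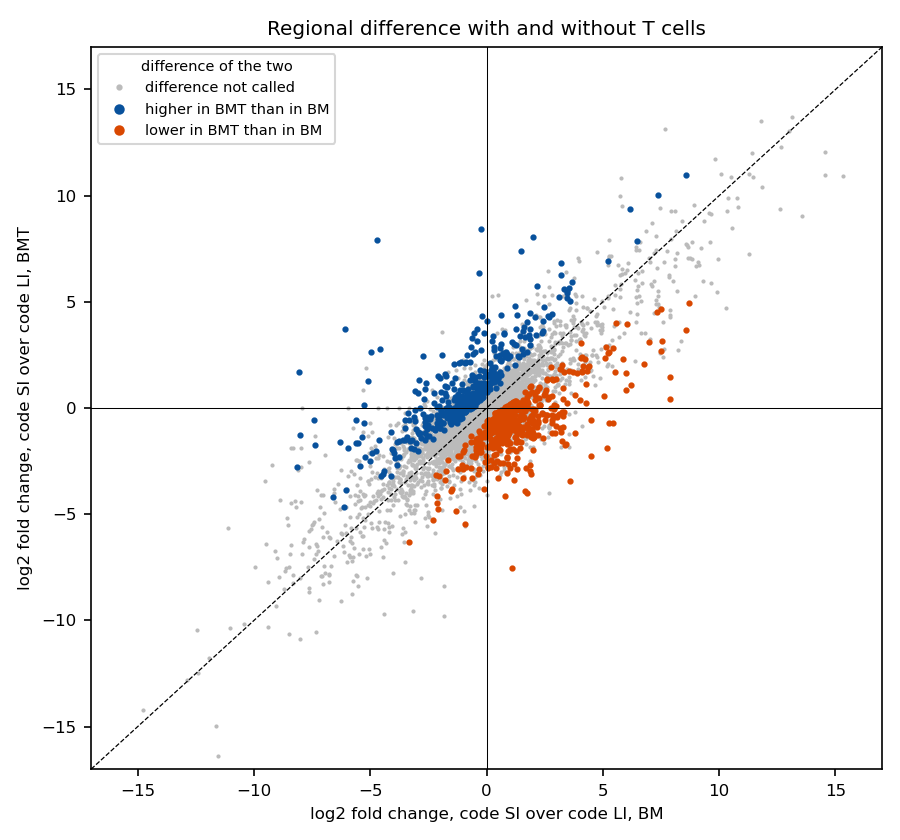
Log2 fold change of code SI over code LI in BM (x axis) and in BMT (y axis) for the 15815 genes tested; coloured points are the 475 genes whose difference between the contrasts was called as higher in BMT and the 541 called as lower, and the dashed line marks equal contrasts. The coloured points lie on both sides of the dashed line, and of the 527 genes called in BM at a log2 fold change of 4 or more, 461 kept their call and direction in BMT.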

How the data were processed

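Gene counts from poly(A)-selected, stranded libraries were used as deposited. Per the submitters' processing notes and the file headers, the authors aligned reads with STAR 2.7.0e to GRCm38.p5 and counted them with featureCounts 1.6.3 after FastQC 0.11.9; neither annotation release nor strand setting nor handling of multimapped reads is given in the sources used here. Without a known strand setting, overlapping and antisense genes are uncertain. Of 53379 gene identifiers 53274 matched a symbol. The deposited counts of 12 intestinal libraries (4 groups of 3) were fitted with edgeR 4.0.16 (R 4.3.3) after filterByExpr and TMM scaling, without a block, with quasi-likelihood tests of code SI against code LI in BMT, in BM, and of their difference, adjusted by Benjamini-Hochberg over 15815 genes. Standard errors were taken as the fold change over the square root of F. The script was tested on simulated data. No 2 libraries agreed within sampling noise. The number in the library descriptions recurs in both regions and in liver. Deviations of same-numbered BMT libraries of the regions correlated at 0.208, -0.05 and 0.114, and those of differently numbered ones at -0.300 to 0.189. With groups of 3 these values cannot decide whether equal numbers mark the same mouse, and the main fit took no pairing.

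Members and gene lists were chosen with earlier results of these data known. Named genes were the 10 largest calls in each direction in BMT (mean of at least 5 CPM, no overlap), the 2 members with the smallest p of each list, a fixed set of homing, inflammation and region genes, and the 8 largest differences between contrasts in each direction; all others, and the hepatocyte list, were named after their values were seen. Alternatives were DESeq2 1.42.0, other scalings and filters, the block, 1 lane, 6 libraries alone and leaving out each library. Intervals and floors cover counting error only. Some members are not reported here by name; counts and sums over lists include them.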

Additional observations from a re-analysis of the deposited data

Results flagged for a closer look

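The regional contrast differed between recipients with and without T cells for 475 genes (3.00%) as higher and 541 (3.42%) as lower in BMT, in the test of the difference itself. Of the genes named by the rules given above, 35 were among them, 13 higher and 22 lower. Genes named outside those rules, such as Cxcl16, Gpr55 and Il18, also had called differences. Their values are given above and are not repeated here. Values below are the difference between the log2 contrasts of code SI over code LI, BMT minus BM.

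Among leukocyte genes the difference was -3.98 for Cd4, -2.58 for Cd8a, -3.58 for Tyrobp, -1.90 for Tnfrsf4, -1.70 for Itgb7, -5.07 for Gzma, -3.11 for Gzmb, -4.51 for Il1r2, -3.28 for Igkc and -3.31 for Igha. The value for Cd4 rests on BM levels near the floor, where no regional difference was called. These were 0.227, 0.132 and 0.0494 CPM in code SI and 0.101, 0 and 0 CPM in code LI of BM libraries 2, 4 and 5. Tyrobp, Tnfrsf4 and Itgb7 were also low in BM, at most 1.68, 0.607 and 1.09 CPM, without a regional call there. Il1r2 was among 15 neutrophil genes that together summed to at most 2.77 CPM in any BM library. For Lyve1, of the endothelial list, the difference was 1.68. Of the calls of these leukocyte genes and Lyve1, all but those of Gzma and Tnfrsf4 ended in 1 or more of 18 or 19 alternative settings. The number was 8 for Tyrobp, 7 each for Cd8a and Igha, 6 for Lyve1, 5 for Il1r2, 4 each for Cd4, Itgb7 and Igkc and 1 for Gzmb. Among genes of inflammation the difference was 1.67 for Ccl28, -4.13 for Nos2 and -4.19 for Lcn2, whose call ended in 7 of 19 settings.

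Of the absorptive, secretory and stress genes, Sis had 2.37 (ended in 8 of 19 settings), Anpep 2.66, Slc7a9 -1.56, Tph1 -2.27, Trpm5 4.50 and Phlda3 -2.85. Besides Gzma, genes named for the size of this difference toward code LI had values of -8.62 for Krt90, -6.44 for Pnliprp2, -6.00 for Ang4, -5.14 for Slco3a1, -4.90 for Slc28a2, -4.71 for Tgfbi and -4.40 for Fam234b. Those named for it toward code SI had values of 12.63 for Alb (7.12 without code SI library 10), 8.70 for Cyp4b1, 7.62 for Ces1d, 7.40 for Ces1g, 5.91 for Prlr, 3.62 for Maob, 3.60 for Otc and 3.59 for Agmo. The calls of Krt90, Slc28a2 and Ces1d each ended in 1 of 19 settings.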

How the results depend on the processing

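With calls limited to a log2 fold change of at least 1, 937 genes were higher and 1602 lower in code SI of BMT, and of the BM calls 1521 were kept, 1088 had no call in BMT and 30 were opposite. Differences between the contrasts numbered 839 higher with DESeq2, 939 higher and 987 lower with no filter on low counts, and 1100 higher and 924 lower with 1 lane only, while opposite calls numbered 170 and 193 under the latter settings. Fitting BM and BMT separately, with fewer libraries in each fit, left 3937 BM calls without a call in BMT and 32.3% kept. For the other moves the cause was not tested.

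Leaving out each library in turn gave 1290 to 1825 genes higher and 1992 to 2298 lower in code SI of BMT, 261 to 1056 higher and 281 to 788 lower differences, 2044 to 2383 kept calls (42.5% to 55.4%), 1629 to 2920 without a call and 54 to 160 opposite. Higher differences numbered 1056 without code SI library 9 of BMT and 261 to 295 without code LI library 2, 4 or 5 or code SI library 5 of BM or code LI library 9 of BMT. Lower differences numbered 281 to 330 without code LI library 2, 4 or 5 or code SI library 2 or 5 of BM. Opposite calls numbered 160 without code SI library 9 and 54 to 57 without code LI library 4 or 5 or code SI library 5 of BM or code LI library 6 of BMT. Leaving out single libraries moved Hbb-bs, at 1.17 with all, between -0.12 and 1.64 and Itgae, at 0.42 with all, between -0.20 and 0.74. The negative values came without code SI library 10, and neither gene was called in any of these fits.

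With the library number as a replicate block, 1505 genes were higher and 2452 lower, 494 and 601 differences were called and 49.1% of BM calls were kept. This paired fit is given because the descriptions share numbers, and the labels do not say whether equal numbers mark 1 mouse. Depth limits genes near 3 counts, where folds are bounds or wide ratios.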
